A study of Mus musculus with 14 samples.

Results

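The genes described here are 10 genes of astrocytes, the star-shaped glia of the brain: Gfap, Aldh1l1, Aqp4, Slc1a2, Slc1a3, Gja1, S100b, Glul, Aldoc and Sox9. They were chosen by name as widely used astrocyte genes, with earlier results of these data known. All 10 were found among the 39017 genes of the count table and among the 21298 genes that passed the filter on low counts. RNA was measured by translating ribosome affinity purification (TRAP) followed by RNA-seq in the hippocampus of male mice of C57BL/6 background, 8 to 12 weeks old when behavioral work began. All mice carried EGFP-L10a, a tagged ribosomal protein, switched on by PV-Cre (EGFP-L10a+; PV-Cre+), so that the tag marked the ribosomes of parvalbumin (PV) interneurons, and both hippocampi of 1 mouse made 1 TRAP sample. TRAP libraries came from 4 non-defeated mice, from 4 mice that were resilient after chronic social defeat stress (CSDS), in which a mouse is repeatedly attacked by and housed beside a larger aggressor, and from 3 mice that were susceptible. Resilient and susceptible mice were told apart in a social interaction test. Their time near an enclosure with a new aggressor was divided by their time near the empty enclosure, and susceptible mice had a ratio under 1. A further 3 libraries held total RNA of non-defeated mice taken before the purification and are called input. Libraries are named by the number in their sample name, which runs from 1 to 11 in TRAP and from 12 to 14 in input, and each library had between 64110214 and 94726962 counts on genes.

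Astrocytes take up glutamate and potassium released by neurons, pass metabolites and ions among themselves through gap junctions and meet blood vessels with water channel-rich endfeet. Slc1a2 (GLT-1) and Slc1a3 (GLAST) encode their glutamate transporters, Glul encodes glutamine synthetase, which turns the captured glutamate into glutamine, Aldoc and Aldh1l1 encode a glycolytic and a folate-metabolizing enzyme, Aqp4 encodes the water channel of the endfeet, Gja1 the gap junction protein connexin 43, Gfap an intermediate filament, S100b a calcium-binding protein and Sox9 a transcription factor. Several of these products are known outside astrocytes too, such as Glul in oligodendrocytes and S100b in oligodendrocytes and some neurons. In PV TRAP, transcripts of astrocytes are RNA of cells that were not meant to carry the tag, and the comparison with input asks how much lower they were. Input is total RNA and TRAP is RNA on tagged ribosomes. Removal, ribosome loading and RNA of the tagged cells themselves therefore cannot be told apart. In a bulk sample, fewer cells of a type and less RNA per cell cannot be told apart.

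The purification itself is seen in Pvalb, which encodes PV. It had between 1208 and 1600 normalized CPM (counts scaled to library size and normalized with the TMM method) in the 11 TRAP libraries and between 20.02 and 31.9 in the 3 input libraries, a log2 fold change of 5.85 in non-defeated mice (SE, the standard error, 0.17, edgeR adjusted p = 7.89e-11).

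Start regions of 4 of the genes are shown, because they differed in the comparison with input: Gfap and Slc1a3 were lower in TRAP, while Aldh1l1 and Glul did not pass the threshold. Each is the RefSeq window of 300 bases on GRCm38.p6 that runs from 250 bases before the transcription start to 50 after it, written 5′ to 3′ on the strand of the gene. The Gfap window lies at chr11:102897151-102897450 on the minus strand, the Slc1a3 window at chr15:8710758-8711057 on the minus strand, the Aldh1l1 window at chr6:90550543-90550842 on the plus strand and the Glul window at chr1:153899679-153899978 on the plus strand. Capitals mark matches, on either strand, to the TATA box TATAAA, the CCAAT box, the GC box GGGCGG, the SOX core ACAATG, the NFI half-site TTGGCA and the STAT site TTCCNGGAA, of which CCAAT read on the other strand can share letters with TTGGCA.
Gfap: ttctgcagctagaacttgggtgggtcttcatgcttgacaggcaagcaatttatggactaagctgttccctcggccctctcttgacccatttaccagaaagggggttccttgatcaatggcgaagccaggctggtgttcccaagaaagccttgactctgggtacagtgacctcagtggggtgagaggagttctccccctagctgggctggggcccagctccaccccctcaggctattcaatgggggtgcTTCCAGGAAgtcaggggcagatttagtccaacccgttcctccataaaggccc
Slc1a3: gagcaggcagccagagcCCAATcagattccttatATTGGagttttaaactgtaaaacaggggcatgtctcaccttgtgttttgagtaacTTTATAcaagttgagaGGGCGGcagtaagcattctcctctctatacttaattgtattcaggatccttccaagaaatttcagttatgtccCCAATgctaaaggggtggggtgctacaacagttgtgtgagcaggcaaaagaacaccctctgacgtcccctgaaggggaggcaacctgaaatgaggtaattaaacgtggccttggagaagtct
Aldh1l1: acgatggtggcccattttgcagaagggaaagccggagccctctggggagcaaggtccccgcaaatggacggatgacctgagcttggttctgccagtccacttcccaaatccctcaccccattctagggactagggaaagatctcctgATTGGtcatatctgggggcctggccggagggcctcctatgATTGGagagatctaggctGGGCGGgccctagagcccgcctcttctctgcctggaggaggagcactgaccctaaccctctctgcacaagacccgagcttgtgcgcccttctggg
Glul: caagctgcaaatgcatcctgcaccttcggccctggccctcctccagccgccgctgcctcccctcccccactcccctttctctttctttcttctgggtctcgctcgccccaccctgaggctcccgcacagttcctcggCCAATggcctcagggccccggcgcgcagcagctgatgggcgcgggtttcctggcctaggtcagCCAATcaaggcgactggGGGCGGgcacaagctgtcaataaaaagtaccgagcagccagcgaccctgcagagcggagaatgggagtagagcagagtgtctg
Glul had the window richest in G and C, at 64.3% with 17 CpG pairs, and Slc1a3 the poorest, at 45.3% with 3 CpG pairs, against a median of 52.7% over all 32851 windows. Windows were found for 8 of the 10 genes and searched (9 windows, since Aldoc has a pair of them), and those of Aqp4 and Sox9 were not analysed here. CCAAT was found in 4 of the 9 windows and in 37.4% of all windows, GGGCGG in 4 and 35.7%, and TATAAA in 1 and 13.6%. TTGGCA was found in 2 of the 9 and in 14.1% of all windows, TTCCNGGAA in 2 (Gfap and 1 window of Aldoc) and 1.15%, and ACAATG in 0 and 12.6%. These letters were shared by no fixed subset of the genes: CCAAT stood in the windows of Slc1a3, Aldh1l1, S100b and Glul, which were on both sides of the comparison.

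Per length of the annotated exons of a gene, the 10 genes spanned a wide range of levels in input. Aldoc led with 358 ± 13.9 RPKM (normalized counts per length and library size; SD, n = 3), followed by Gfap with 57.6 ± 3.17 and Glul with 57.5 ± 1.88, which did not differ beyond their spread. S100b stood at 34.7 ± 2.02, Sox9 at 16.7 ± 1.42, Slc1a3 at 14.6 ± 0.931, Slc1a2 at 14.6 ± 0.636 and Aldh1l1 at 12.6 ± 0.919, and of these, the levels of Slc1a3 and Slc1a2 did not differ beyond their spread. Aqp4 with 6.45 ± 0.690 and Gja1 with 6.15 ± 0.261 were the lowest, again within their spread of each other. Order by RPKM rests on the exon length, which ran from 1484 bases for S100b to 13133 for Slc1a2 and was 10257 for Gja1. By mean CPM in input, Gja1 (63.1) was above Aldh1l1 (56.8), S100b (51.6) and Aqp4 (40.2), and below the rest. In TRAP of non-defeated mice the order by RPKM was different. Aldoc remained the highest at 298 ± 60.1 RPKM (SD, n = 4), but Glul at 48.7 ± 5.02 was next and Gfap, at 22.8 ± 3.76, lay within the spread of S100b at 25.1 ± 7.06. Slc1a3 (4.45 ± 1.12) and Slc1a2 (4.20 ± 0.527) now lay below Sox9 (10.02 ± 1.46) and Aldh1l1 (9.96 ± 4.89), and Gja1 (1.77 ± 0.419) and Aqp4 (1.52 ± 0.401) remained at the bottom, within their spread of each other.

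**Figure D1:**
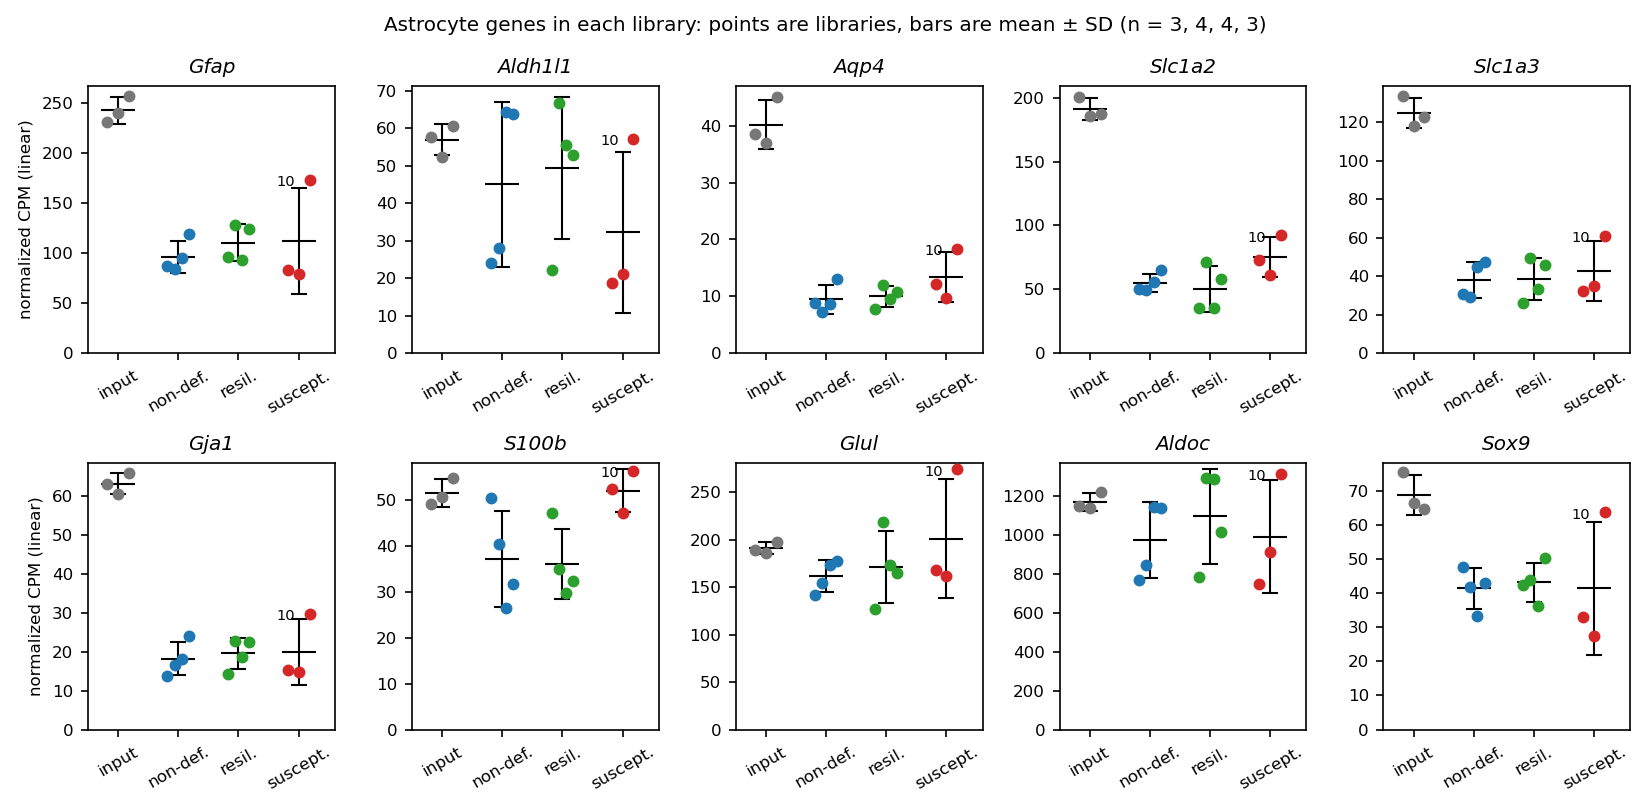
Normalized CPM (linear axis from 0) of the 10 astrocyte genes in the 3 input, 4 non-defeated, 4 resilient and 3 susceptible libraries, with 1 point per library and bars for mean ± SD; the point marked 10 is susceptible library 10. Aqp4, Slc1a2, Slc1a3, Gja1, Gfap and Sox9 lie lower in every TRAP library than in every input library, whereas Aldh1l1, Glul, Aldoc and S100b overlap input.

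To learn which astrocyte genes were lower after the purification, TRAP and input of non-defeated mice were compared. This used edgeR's quasi-likelihood test on all genes, with Benjamini-Hochberg adjustment. Of the 10 genes, 7 were lower in TRAP at an adjusted p-value under 0.05, 0 were higher and 3 did not pass, while 27.6% of all genes tested were lower and 27.4% were higher. By the likelihood ratio test 7 passed (28.4% of all genes were lower) and by DESeq2 7 passed, with Glul in place of S100b (22.9% were lower), and 7 also had an unadjusted p-value under 0.05. The median log2 fold change of the 10 genes was -1.03, beside -0.04 for all genes. Every library of non-defeated TRAP lay below every input library for 7 of the 10 (32.5% of all genes), and all 11 TRAP libraries did so for 6 of the 10 (25.1% of all genes).

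Among the 10 genes, the decreases were largest for Aqp4, Slc1a2, Gja1 and Slc1a3, genes of the endfeet, of glutamate uptake and of gap junctions. Aqp4 (ENSMUSG00000024411; GRCm38, chromosome 18, from 15389496 to 15410982, minus strand), the water channel, had 8.77, 7.28, 8.72 and 13.1 CPM in non-defeated TRAP libraries 1, 6, 9 and 11 and 38.6, 37.0 and 45.1 in input. The highest TRAP library thus held less Aqp4 than the lowest input library, and the log2 fold change was -2.09 (SE 0.22, adjusted p = 2.61e-06), or 23.5% of input. Only 3.39% of all genes had a lower log2 fold change.

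Slc1a2 (ENSMUSG00000005089; chromosome 2, from 102658659 to 102790784, plus strand), which encodes the main glutamate transporter of the adult forebrain, had 50.3, 49.8, 55.6 and 64.7 CPM in TRAP and 201, 185 and 188 in input. TRAP and input did not overlap, with a log2 fold change of -1.80 (SE 0.22, adjusted p = 8.11e-06). Exons of Slc1a2 overlap those of the antisense gene Gm13872, and the library kit did not mark strand, so reads of both cannot be told apart there.

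Slc1a3 (ENSMUSG00000005360; chromosome 15, from 8634124 to 8710764, minus strand), the second glutamate transporter gene, had 30.6, 29.0, 44.8 and 47.5 CPM in TRAP and 133, 118 and 123 in input. It was lower in each TRAP library than in each input library, by 1.72 on the log2 scale (log2 fold change -1.72, SE 0.25, adjusted p = 4.77e-05).

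Gja1 (ENSMUSG00000050953; chromosome 10, from 56377330 to 56402513, plus strand), which encodes connexin 43, had 13.9, 16.7, 18.2 and 24.1 CPM in TRAP and 63.0, 60.5 and 65.8 in input. The groups were apart, and the log2 fold change of -1.79 (SE 0.24, adjusted p = 1.93e-05) was close to that of the glutamate transporters.

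Gfap (ENSMUSG00000020932; chromosome 11, from 102887336 to 102900912, minus strand), the intermediate filament gene, had 87.0, 84.4, 94.8 and 119 CPM in TRAP and 231, 240.3 and 258 in input. It was lower in all 4 TRAP libraries, with a log2 fold change of -1.34 (SE 0.23, adjusted p = 0.000181), so that TRAP retained 39.6% of the input level.

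Sox9 (ENSMUSG00000000567; chromosome 11, from 112782224 to 112787760, plus strand), a transcription factor of the astrocyte lineage, had 47.8, 41.8, 33.3 and 43.0 CPM in TRAP and 75.5, 66.4 and 64.6 in input. TRAP lay below input without overlap, but the log2 fold change of -0.73 (SE 0.22, adjusted p = 0.0118) was smaller than those above, and an offset for gene length took it to -0.48 (adjusted p = 0.0789).

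S100b (ENSMUSG00000033208; chromosome 10, from 76253853 to 76261159, plus strand) passed narrowly. Its CPM was 50.5, 40.4, 26.6 and 31.7 in TRAP and 49.1, 50.7 and 54.9 in input, so library 1 reached the level of input while the other 3 were lower. The log2 fold change was -0.47 (SE 0.19, adjusted p = 0.0486), and the call was lost in 6 of 7 fits that left out 1 library (all but the fit without TRAP library 1), where the adjusted p-value rose to at most 0.133.

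The metabolic enzymes Glul, Aldoc and Aldh1l1 did not pass the threshold. Glul (ENSMUSG00000026473; chromosome 1, from 153899944 to 153909723, plus strand), which encodes glutamine synthetase, had 142, 154, 173 and 177 CPM in TRAP and 189, 186 and 198 in input. Every TRAP library was lower than every input library by a small margin, and the log2 fold change was -0.24 (SE 0.18, adjusted p = 0.285). With the input and non-defeated TRAP libraries fitted alone it passed (log2 fold change -0.24, adjusted p = 0.0423), as it did with DESeq2 (adjusted p = 0.0404). Exons of Glul overlap those of Teddm2 on the opposite strand and of Mir8114.

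Aldoc (ENSMUSG00000017390; chromosome 11, from 78322968 to 78327781, plus strand), the brain form of the glycolytic enzyme aldolase, had 766, 843, 1143 and 1137 CPM in TRAP and 1149, 1138 and 1221 in input. Libraries 1 and 6 were well below input, library 11 was just below its lowest library and library 9 within its range, with a log2 fold change of -0.27 (SE 0.20, adjusted p = 0.279).

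Aldh1l1 (ENSMUSG00000030088; chromosome 6, from 90486427 to 90600203, plus strand), an enzyme of folate metabolism and a common astrocyte marker, had 23.9 and 27.9 CPM in TRAP libraries 1 and 6, 64.3 and 63.8 in libraries 9 and 11, and 57.6, 52.4 and 60.6 in input. Libraries 1 and 6 were well below input and libraries 9 and 11 above all of it, and the log2 fold change of -0.34 had the largest standard error of the 10 genes (0.44, adjusted p = 0.532). Exons of Aldh1l1 overlap those of Gm45901 on the same strand and of Gm15756 on the other, with which it may share reads.

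**Figure D2:**
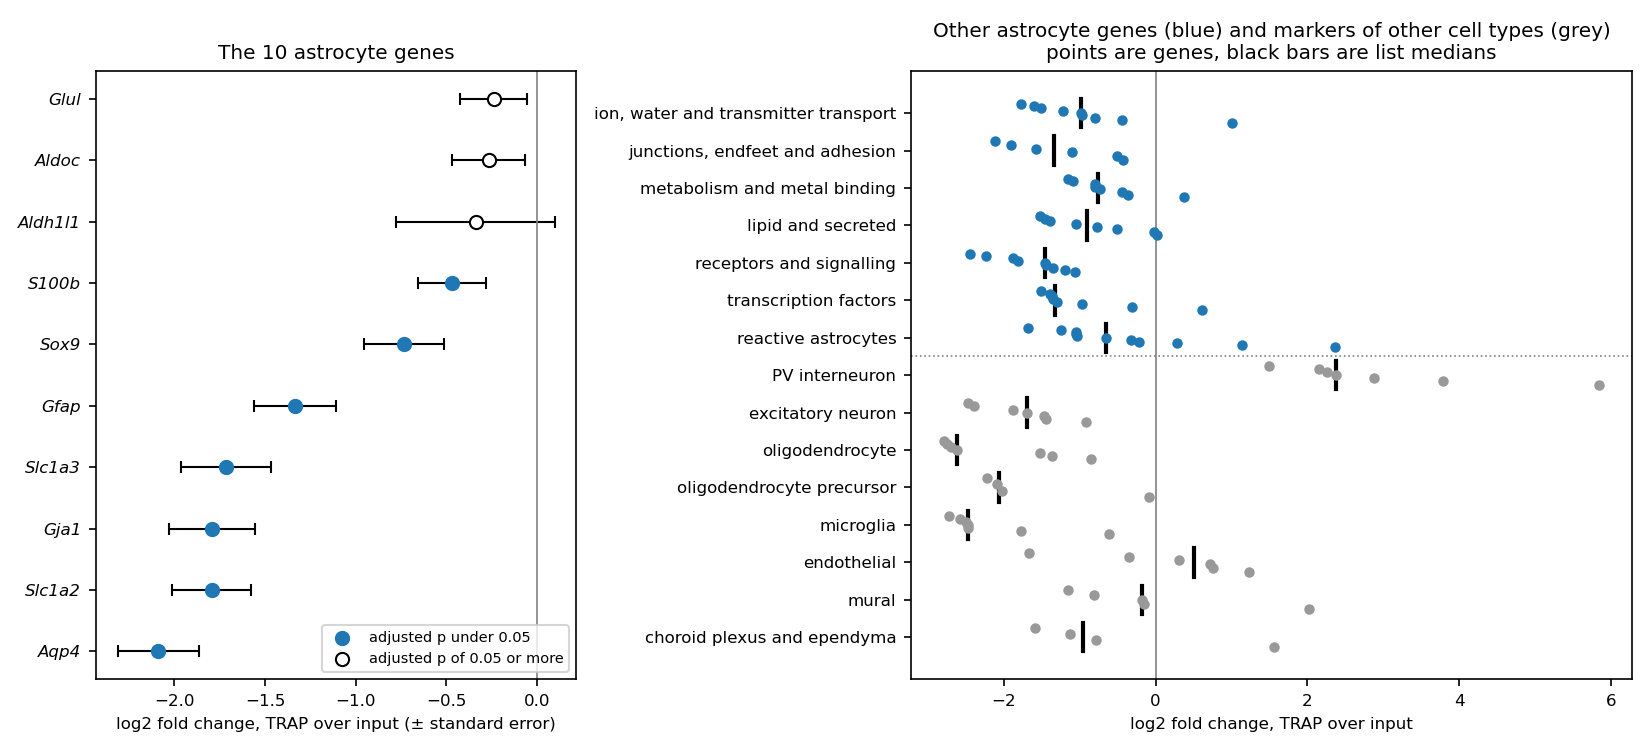
Log2 fold change between TRAP and input of non-defeated mice. On the left are the 10 astrocyte genes with their standard errors (filled where the adjusted p-value is under 0.05), from Aqp4 at -2.09 to Glul at -0.24; on the right, other astrocyte genes by function (blue) and markers of other cell types (grey), with black bars for list medians, from -2.61 in oligodendrocytes to 2.38 in PV interneurons.

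Within a library, the 10 genes were also not lower in TRAP in equal proportion. Each gene was divided by the geometric mean of the other 9 in the same library, which removes library scaling. Since the 10 ratios are set against each other, some must go up where others go down, and a positive value means a smaller decrease than that of the other 9, not a higher level. From input to TRAP, the mean log2 ratio changed by -1.12 for Aqp4, -0.79 for Gja1, -0.77 for Slc1a2, -0.71 for Slc1a3 and -0.26 for Gfap, and by 0.41 for Sox9, 0.67 for S100b, 0.70 for Aldh1l1, 0.91 for Aldoc and 0.96 for Glul. TRAP here means the libraries of non-defeated mice only. In these, the log2 ratio of Slc1a2 lay between -0.07 and 0.01, and in input between 0.65 and 0.81. Glul lay between 1.55 and 1.82 in TRAP and between 0.71 and 0.76 in input. The order of the genes by this ratio was close to their order by fold change, since both rest on the same counts.

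Other genes known from astrocytes were read in the same way. Of 61 such genes in 7 functional lists, 59 passed the filter on low counts (Steap4 and Timp1 did not), and 40 were lower in TRAP than in input, 4 were higher and 15 did not pass, with a median log2 fold change of -1.06. The transport list had 8 of 9 lower and 1 higher. The smallest p-values were those of Atp1b2, a sodium pump subunit (log2 fold change -1.51, adjusted p = 1.23e-06), and Slc6a11, the astrocytic GABA transporter GAT-3 (-1.77, adjusted p = 0.000340). All 6 genes of junctions, endfeet and adhesion were lower, led by Hepacam (-2.12, adjusted p = 3.08e-08), which encodes an adhesion protein of astrocytes, and Cldn10 (-1.91, adjusted p = 5.55e-07), a claudin. All 9 genes of receptors and signaling were lower as well, including Fgfr3, a fibroblast growth factor receptor (-2.45, adjusted p = 7.25e-07), and Ndrg2 (-1.19, adjusted p = 8.40e-06).

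Of enzymes and metal-binding proteins 4 of 8 were lower, 1 was higher and 3 did not pass. Gpt2, an alanine aminotransferase (log2 fold change -1.09, adjusted p = 3.80e-06), and Ppp1r3c, a regulator of glycogen synthesis (-1.16, adjusted p = 5.46e-06), were lower, and the metallothionein gene Mt3, which neurons also use, was higher (0.37, adjusted p = 0.0417). Of lipid and secreted protein genes 5 of 8 were lower, among them Cst3, the protease inhibitor cystatin C (-1.05, adjusted p = 2.99e-07), and Apoe, the main lipid carrier of the brain (-1.52, adjusted p = 8.67e-06). Of transcription factors 6 of 8 were lower, among them Nfia (-1.36, adjusted p = 1.34e-06) and the Notch target Hes5 (-1.40, adjusted p = 1.55e-06), and Sox2 was higher (0.61, adjusted p = 0.00332). Genes known from reactive astrocytes were low or mixed: of 11 tested, Serpina3n, a protease inhibitor (-1.25, adjusted p = 1.65e-06), and Cd44, a receptor for hyaluronan (-1.68, adjusted p = 0.00435), were lower, the filament gene Vim was higher (1.14, adjusted p = 7.29e-05) and 8 did not pass.

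Markers of other cells give a scale for these values. The median log2 fold change in TRAP was -2.61 for 7 oligodendrocyte markers, -2.47 for 7 microglial markers, -2.06 for 4 markers of oligodendrocyte precursors and -1.69 for 7 markers of excitatory neurons, beside -1.03 for the 10 astrocyte genes. It was -0.96 for 4 markers of choroid plexus and ependyma, -0.18 for 5 markers of mural cells and 0.51 for 6 endothelial markers, with 1 gene lower and 1 higher at the adjusted threshold in each of these lists. All 7 oligodendrocyte, microglial and excitatory markers were lower at the adjusted threshold, and 7 of 7 PV interneuron markers were higher with a median of 2.38. Aqp4, Slc1a2, Slc1a3 and Gja1 had values between -1.72 and -2.09. The summed CPM of the 10 genes was between 2134 and 2278 in input and between 1221 and 1722 in non-defeated TRAP, and most of either sum was Aldoc.

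The 10 genes did not move as 1 block between TRAP libraries. Aldh1l1 varied most, 3.59-fold between its lowest and its highest TRAP library, and Aldoc least, 1.75-fold, with the other 8 between 2.12-fold (S100b) and 2.63-fold (Slc1a2). Aldh1l1 fell into separate ranges: it had between 18.6 and 27.9 CPM in libraries 1, 2, 3, 4 and 6 and between 52.7 and 66.7 in libraries 5, 7, 8, 9, 10 and 11. Each stress group held libraries of both kinds, but in unlike shares. The former were non-defeated libraries 1 and 6, resilient library 3 and susceptible libraries 2 and 4. Aldoc divided the same libraries, with 749.8 to 911 CPM in the former and 1016 to 1312 in the latter, while S100b did so in the opposite direction except in library 10, with 40.4 to 52.5 CPM in libraries 1, 2, 3, 4 and 6, 26.6 to 35.1 in libraries 5, 7, 8, 9 and 11, and 56.5 in library 10. The same split was present in genes outside the list: the first principal component of the other 21288 genes over the TRAP libraries, on log2(CPM + 1), held 36.0% of the variance and was negative in libraries 1, 2, 3, 4 and 6 and positive in the other 6. The labels name no batch, and the part of this component in the astrocyte genes was not tested.

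Compared with input, non-defeated libraries 1 and 6 and non-defeated libraries 9 and 11 gave different values for Aldh1l1. The other TRAP libraries of each fit entered only its filter, normalization and spread. This division of the non-defeated libraries was already seen in their CPM, so the fits are no separate support for it. With libraries numbered 1 to 6 and input alone, Aldh1l1 was lower in non-defeated TRAP (log2 fold change -1.12, adjusted p = 0.0240). With libraries numbered 7 to 11 it was not (0.17, adjusted p = 0.0800). Aldoc was lower with the former only (-0.53, adjusted p = 0.0333, against -0.03, adjusted p = 0.775), and S100b with the latter only (-0.82, adjusted p = 0.000128, against -0.17, adjusted p = 0.320). The differences between these fits were not tested. Aqp4, Slc1a2, Slc1a3, Gja1, Gfap and Sox9 passed in both.

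**Figure D3:**
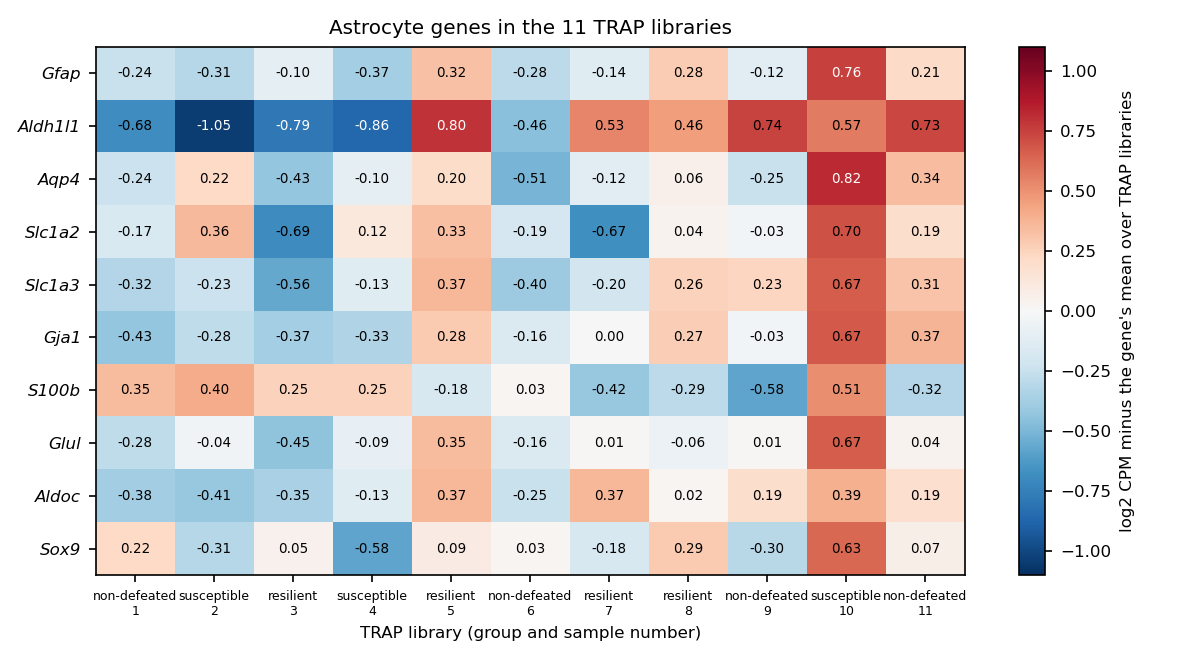
Log2 CPM of each astrocyte gene in each of the 11 TRAP libraries minus that gene's mean over them, from blue (lower) to red (higher), with libraries in the order of their numbers. Susceptible library 10 is above the mean for all 10 genes, and Aldh1l1 is below its mean in libraries 1, 2, 3, 4 and 6 and above it in the other 6.

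Susceptible library 10 had the highest levels of most of the 10 genes. It was the highest of the 11 TRAP libraries for 9 of the 10 genes, the exception being Aldh1l1, which was highest in resilient library 5. Across all genes, library 10 was the highest for 13.6%. Its 10 genes lay a median of 0.67 above their TRAP means on the log2 scale, between 0.39 for Aldoc and 0.82 for Aqp4. Gfap, for example, had 83.0, 79.5 and 174 CPM in susceptible libraries 2, 4 and 10, and Sox9 had 33.0, 27.4 and 63.6. Libraries 2 and 4 were slightly below the range of non-defeated mice for both genes, and library 10 was above all other TRAP libraries but below input. Markers of other cells moved with it: library 10 had the highest sum of markers of oligodendrocyte precursors (78.2 CPM), microglia (37.2), mural cells (59.0) and choroid plexus and ependyma (710.1), the second highest of oligodendrocytes (1419) and excitatory neurons (974), and the lowest sum of the 7 PV interneuron markers (3232.5 against 3697 to 4529 in the other 10). For endothelial markers, library 10 had the third highest sum (13.5 CPM). Pvalb itself was 1241 CPM in library 10, the second lowest after library 5 at 1208. The part of these other cells in the values of library 10 was not tested.

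Whether the astrocyte genes differ in PV TRAP after CSDS was asked in 3 comparisons, of which those with non-defeated mice share their controls. Between resilient and non-defeated mice, 0 of the 10 genes passed the adjusted threshold (0% of all genes), 0 had an unadjusted p-value under 0.05 (4.38%), and 0 had groups without overlap (2.35%). By the likelihood ratio test (0.0188% of all genes) and by DESeq2 (0%), 0 of the 10 passed as well. Log2 fold changes ranged from -0.14 to 0.20 with standard errors between 0.17 and 0.41, a median of 0.08 beside 0.00 for all genes. With 1 library left out, this median lay between -0.03 (without resilient library 5, with 4 genes above 0 and 6 below) and 0.20 (without non-defeated library 11). Gfap had 95.9, 128, 93.5 and 125 CPM in resilient libraries 3, 5, 7 and 8, Slc1a2 had 35.1, 71.4, 35.6 and 58.4 and Glul had 126, 219, 173 and 165. These values were spread through and around those of non-defeated mice.

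Between susceptible and non-defeated mice, 0 of the 10 genes passed the adjusted threshold (0.0376% of all genes), 2 had an unadjusted p-value under 0.05 (13.3%) and 0 had groups without overlap (8.62%). By the likelihood ratio test (0.887% of all genes) and by DESeq2 (0.418%), 0 passed. The median log2 fold change was 0.19 beside 0.01 for all genes, with 8 genes above 0 and 2 below. Aqp4 had 12.1, 9.68 and 18.3 CPM in susceptible libraries 2, 4 and 10, against 7.28 to 13.1 in non-defeated mice. Only library 10 exceeded the non-defeated range, and the log2 fold change was 0.50 (SE 0.22, unadjusted p = 0.0421, edgeR adjusted p = 0.361). S100b had 52.5, 47.2 and 56.5 CPM, against 26.6 to 50.5. Libraries 2 and 10 exceeded the non-defeated range, with a log2 fold change of 0.48 (SE 0.19, unadjusted p = 0.0230, edgeR adjusted p = 0.314). For each of these genes, the unadjusted p-value was 0.05 or more in 4 of the 7 fits that left out 1 library. The value of S100b was 0.13 with libraries numbered 1 to 6 and input (unadjusted p = 0.407 in edgeR). It was 0.95 with libraries numbered 7 to 11, where library 10 is the only susceptible library.

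Between susceptible and resilient mice, 0 of the 10 passed the adjusted threshold (1.89% of all genes), 2 had an unadjusted p-value under 0.05 (20.9%) and 1 had groups without overlap (15.1%). By the likelihood ratio test 0 passed (5.16% of all genes) and by DESeq2 1, S100b (3.62%). The median log2 fold change was 0.09 beside 0.00 for all genes. Slc1a2 had 72.7, 61.5 and 92.2 CPM in susceptible libraries, against 35.1, 71.4, 35.6 and 58.4 in resilient libraries. Susceptible library 4 lay below resilient library 5, and the log2 fold change was 0.59 (SE 0.22, unadjusted p = 0.0156, edgeR adjusted p = 0.142). S100b had groups without overlap, with 52.5, 47.2 and 56.5 CPM against 47.2, 35.1, 29.7 and 32.5, but the nearest values of the groups were equal to 3 digits. Its log2 fold change was 0.53 (SE 0.19, unadjusted p = 0.0142, edgeR adjusted p = 0.136), and with DESeq2 on the groups compared the adjusted p was 0.04965. With libraries numbered 1 to 6 and input it was 0.29 (unadjusted p = 0.0929 in edgeR). With libraries numbered 7 to 11, where library 10 is the only susceptible library, it was 0.86.

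**Figure D4:**
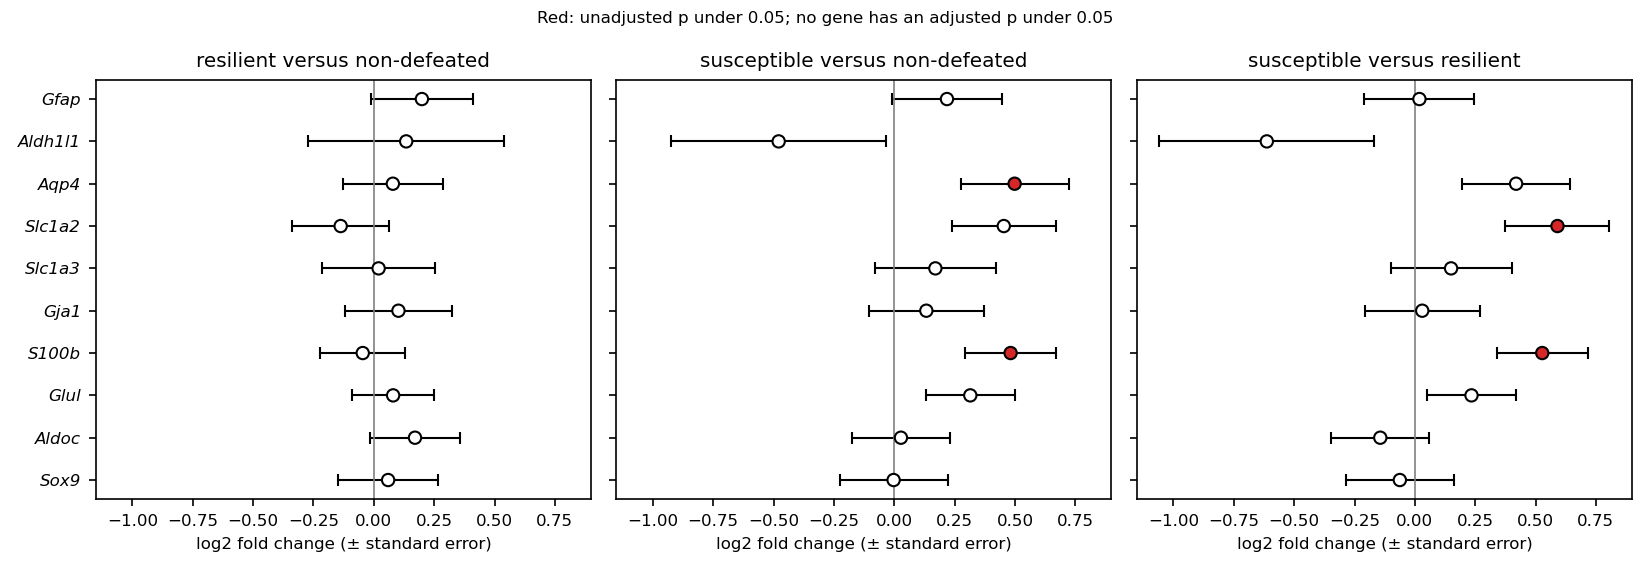
Log2 fold change with standard error of the 10 astrocyte genes in the 3 comparisons of TRAP libraries, with red points where the unadjusted p-value is under 0.05. Red points are Aqp4 and S100b in susceptible against non-defeated mice, and Slc1a2 and S100b in susceptible against resilient mice; for each, the edgeR adjusted p-value is 0.136 or higher.

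Without library 10, the median log2 fold change of the 10 genes was -0.20 against non-defeated mice, with 4 genes above 0 and 6 below, and -0.28 against resilient mice, with 3 above and 7 below. The value of Aqp4 against non-defeated mice went from 0.50 to 0.20 (unadjusted p = 0.362 in edgeR), that of S100b from 0.48 to 0.42 (unadjusted p = 0.0738) and that of Slc1a2 against resilient mice from 0.59 to 0.42 (unadjusted p = 0.0937). S100b against resilient mice kept an unadjusted p-value under 0.05 in all 7 fits that left out 1 library, this one included. Its log2 fold change in them lay between 0.44 and 0.68 (highest unadjusted p = 0.0498, edgeR adjusted p between 0.0661 and 0.303). Without library 10, 4 of the 10 genes had an unadjusted p-value under 0.05 against resilient mice, in place of 2. The share of all genes with such a p-value in this fit is not given here. At the adjusted threshold this fit called 4.88% of all genes, beside 1.89% with library 10. Of the 10 genes, 0 passed that threshold in either comparison. With 1 library other than library 10 left out, the median lay between 0.13 and 0.36 against non-defeated mice, and between -0.02 (without resilient library 3) and 0.25 against resilient mice. The summed level of the 4 choroid plexus and ependyma markers, most of it Ttr, was also higher in every susceptible than in every non-defeated library, with 432 to 710.1 CPM in susceptible, 191 to 449 in resilient and 198 to 330 in non-defeated mice. None of the 4 passed the adjusted threshold (smallest edgeR adjusted p = 0.144), and 2 had an unadjusted p-value under 0.05 against non-defeated mice. Their part in the astrocyte values was not tested.

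The 59 other astrocyte genes gave a like count. None passed the adjusted threshold of edgeR's quasi-likelihood test in any of the 3 comparisons, and 3, 9 and 12 of them had an unadjusted p-value under 0.05 in resilient against non-defeated, susceptible against non-defeated and susceptible against resilient mice. Their medians were 0.06, 0.09 and 0.06 on the log2 scale. By the likelihood ratio test and DESeq2, 0 passed in the comparisons with non-defeated mice, and 5 and 3 in susceptible against resilient mice, where these tests called 5.16% and 3.62% of all genes.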

How the data were processed

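The authors deposited 1 table of raw read counts per gene, whole numbers without normalization, for 11 TRAP and 3 input libraries. Per the paper's methods, fastp trimmed the reads and STAR aligned them to mm10, and the submitters' notes name STAR 2.5.3a and HTSeq. The annotation used for counting is not given in the sources used here. The SMART-Seq v4 and Nextera XT kits do not mark strand, so antisense reads count for the gene they overlap. Groups were taken from the labels, and 0 columns were left out. Whether the input samples came from 3 separate mice is not given in the sources used here, so their spread may be technical.

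GENCODE mouse release 21 gave names to 37693 of the 39017 identifiers (the rest held 0.824% of counts) and a length and GC content to 98.0% of the tested ones. The model, in edgeR 4.0.16 under R 4.3.3, held all 14 libraries, with TMM normalization, the default filter on low counts and the 2-sided quasi-likelihood test at a Benjamini-Hochberg adjusted p under 0.05. TMM factors lay between 0.945 and 0.995 for TRAP and between 1.10 and 1.12 for input. Within each group, no library was a copy of another, since the chi-square per degree of freedom between replicates was 13.4 or more. Pairs of libraries from different groups were not checked. The lowest count of any of the 10 genes was 599, which keeps counting error small beside the spread between libraries.

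The astrocyte genes, the 61 other astrocyte genes and the 47 markers of other cell types were chosen with earlier results of these data known. Each of the 10 genes was described against input. In a stress comparison those with an unadjusted p under 0.05 were named, and the others were given by range, with a few values as examples. Of the other astrocyte genes, up to 2 with the smallest p-value per direction and list were named. Of the genes that met this rule, 1 is left out here. Alternatives were RLE size factors, total counts, no filter on low counts, at least 10 counts in every library, edgeR's likelihood ratio test, DESeq2 1.42.0, the 2 groups only, TRAP libraries only, sample numbers 1 to 6 or 7 to 11 with input, sample number as a covariate, offsets for GC content or length, and omission of each library. The steps were tested on simulated data. Promoter windows are from RefSeq (GRCm38.p6).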

Additional observations from a re-analysis of the deposited data

Results flagged for a closer look

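Each of the 10 astrocyte genes was checked for an outlying library in the 2 groups of 4 samples, 20 checks in all, and 0 libraries were flagged by Dixon's criterion, which would flag about 1 in 20 by chance. The groups of 3 were not checked.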

How the results depend on the processing

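Against input, 6 to 8 of the 10 astrocyte genes passed the threshold under the 11 other settings and 6 to 7 with 1 library left out, and Gfap, Aqp4, Slc1a2, Slc1a3 and Gja1 passed in each. All 10 stayed below 0 except with libraries numbered 7 to 11, where Aldh1l1 turned to 0.17. S100b did not pass with RLE size factors (adjusted p = 0.0634), DESeq2 (0.0551), the groups compared only (0.0615), an offset for GC content (0.159) or libraries numbered 1 to 6 (0.320), and Sox9 did not with an offset for gene length (0.0789). Among the 61 other genes, 41 to 51 passed under other settings and 38 to 46 with 1 library left out. In the stress comparisons 0 of the 10 genes passed with any 1 library left out. With libraries numbered 7 to 11, 2 passed in susceptible against non-defeated mice (S100b and Glul) and 3 in susceptible against resilient mice (Slc1a2, S100b and Glul), where the susceptible arm is library 10 alone and is assumed to vary like the other groups. These fits called 5.86% and 5.31% of all genes, beside 0.0376% and 1.89%. DESeq2 passed 1 (S100b) in the latter. The causes of these differences were not tested. Of the 59 other genes tested, 5 passed in susceptible against resilient mice with sample number as a covariate (5.34% of all genes). With an offset for gene length 1 passed (1.84% of all genes). Counts of these genes with libraries numbered 7 to 11, where library 10 is the only susceptible library, are not given. With total counts only, the median of all genes against input moved by -0.19 on the log2 scale and 36.6% of calls were higher, beside 49.8%; an offset for gene length moved it by 0.19 (59.8% higher). In susceptible against resilient mice 53.8% of calls were higher, beside 30.8% with an offset for GC content and 38.9% with one for length, and the 1.89% of genes called there became 0 when only those groups were fitted. No paired analysis was possible because the groups share no sample numbers. With 3 or 4 libraries a group, standard errors of 0.17 to 0.45 limit which changes in the 10 genes could pass.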

Other observations

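The split of the TRAP libraries seen in Aldh1l1 was also present in other genes, which were chosen after their values were seen. Acsbg1, an acyl-CoA synthetase of astrocytes and neurons, had between 57.1 and 79.6 CPM in libraries 1, 2, 3, 4 and 6 and between 128 and 174 in the other 6. Tcf7l2 and Prkcd, which are abundant in the thalamus, a region next to the hippocampus, stood high in 4 of those 6: Tcf7l2 had 132 CPM in resilient library 7, 66.8 and 33.0 in non-defeated libraries 9 and 11 and 19.4 in susceptible library 10, against 2.95 to 6.01 in the other 7. Prkcd had 340.2, 197, 130 and 77.2 CPM in the same libraries and 11.5 to 30.2 in the other 7. Libraries 5 and 8 were high in Aldh1l1 and Acsbg1 but not in Tcf7l2 or Prkcd.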
